A study of Mus musculus with 10 samples.

Results

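Immunoglobulin RNA in mouse kidney was described through 175 gene segments. They are the genes that GENCODE M21 (GRCm38) gives the biotype of an immunoglobulin variable (V), joining (J), diversity (D) or constant (C) segment and that held at least 10 counts summed over the 10 libraries, out of 46517 genes counted; they were thus chosen by their measured counts, which favours segments that are high in any library. The count tables hold 264 genes of these biotypes, of which 37 had 0 counts in every library and 52 had 1 to 9. The 175 segments comprised 155 V, 12 C, 8 J and 0 D segments. By locus, 88 belonged to the heavy chain on chromosome 12, 81 to the kappa light chain on chromosome 6 and 6 to the lambda light chain on chromosome 16. Just inside the minimum were Ighv3-3 with 10 counts and Ighj3, Igkv3-3 and Igkj4 with 11 each; just outside were Ighv11-2 with 9, Ighv9-2 and Igkv11-125 with 8 each, and Ighv1-56 with 7.

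An antibody is built from heavy and light chains. In each B cell a V segment is joined to a J segment, with a D segment between them in the heavy chain, and the product is spliced to a constant region. The constant region of the heavy chain sets the isotype: Ighm and Ighd encode IgM and IgD, the isotypes of naive B cells, and class switching replaces them by an IgG, IgE or IgA region. Plasma cells secrete antibody and hold very large amounts of its RNA. A single clone of B or plasma cells uses 1 heavy V segment and usually 1 light V segment, so that a sample with few clones can be led by a few segments.

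The study expressed variants of APOL1, a human apolipoprotein L gene with kidney disease risk variants named G1 and G2, in podocytes, per its title. The genotype labels give 4 groups of kidneys: G1 of APOL1 in 2 libraries, G2 of APOL1 in 2, wild type (single mutant) in 3 libraries, and Control in 3. What the words single mutant stand for, which promoter drove the transgene, how many founder lines were used, and the strain, sex and age of the mice are not given in the labels. Sample titles start with G in 6 libraries (both G1, both G2, and wild type (single mutant) replicates 1 and 2) and with N in 4 (wild type (single mutant) replicate 3 and the 3 Control libraries), and the meaning of the letters is not given either.

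All libraries with a risk allele have titles in G and all Control libraries have titles in N, so a difference between them by genotype and one by title letter cannot be told apart; the wild type (single mutant) libraries fall on both sides. The libraries held 27596391 to 34815153 counts, and no 2 were alike within sampling noise. Whether every library is a mouse of its own is not stated, and p-values therefore reflect the variation among these 10 libraries, which may be technical. The kidney list (9 genes such as Umod and Nphs1) was present in each, at a summed 7392 to 56353 CPM. The APOL1 transgene was not analysed here, which leaves the genotype labels without a check.

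Immunoglobulin RNA was low in every library with a title in G and high in every library with a title in N. Of the genotype labels, only wild type (single mutant) occurs under both letters, with replicate 3 alone under N. Levels are given as CPM, the counts scaled to a library of 1000000, on TMM-scaled library sizes. Summed over the 175 segments, G1 kidneys had 48.0 and 54.6 CPM, G2 kidneys 319 and 91.9, wild type (single mutant) kidneys 30.5, 84.5 and 1002, and Control kidneys 554, 1743 and 646. The lowest library with a title in N thus lay above the highest with a title in G. The 3 wild type (single mutant) libraries did not stay together: replicate 3, with a title in N, lay among the Control libraries, replicate 2 lay among the libraries with a risk allele, and replicate 1 lay below them. Kidney was measured in bulk, so fewer antibody-producing cells and less RNA per cell cannot be told apart.

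**Figure D1:**
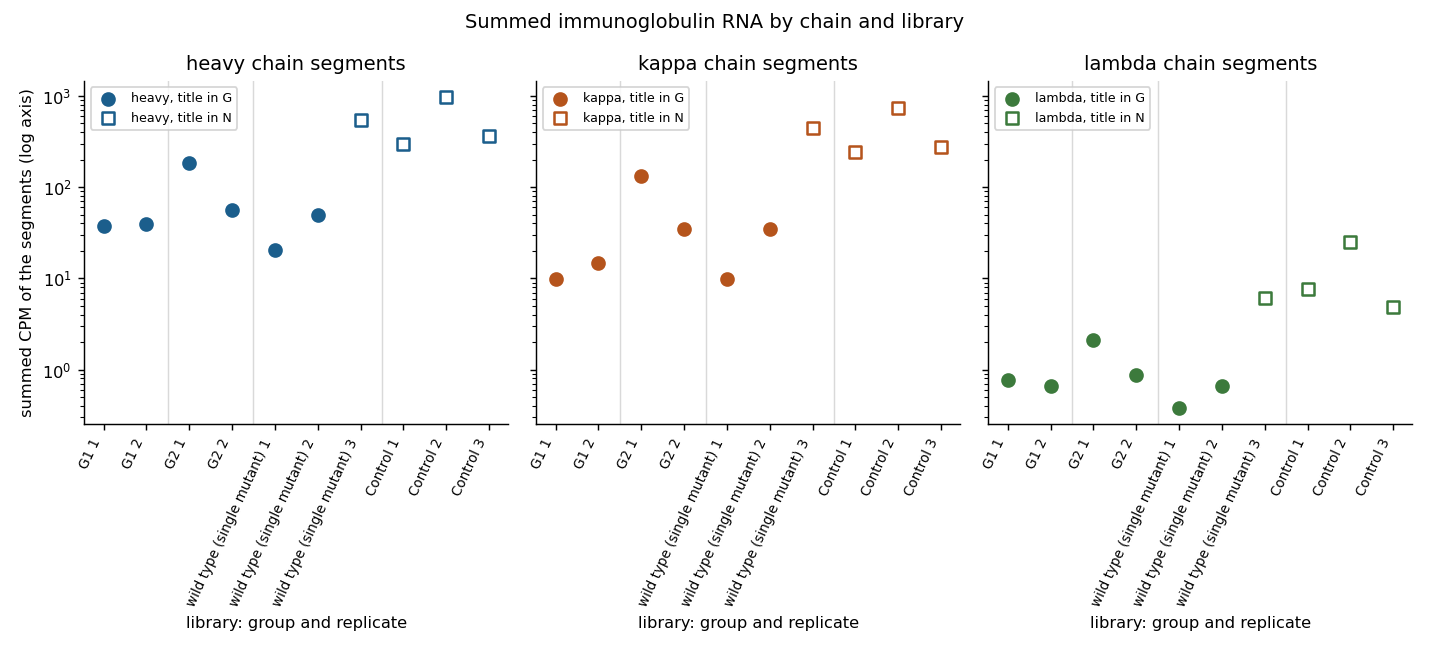
Summed CPM of heavy, kappa and lambda segments (log axis) in each of the 10 libraries, by genotype label; filled circles are titles in G and open squares titles in N. In the heavy panel the 6 filled circles lie between 20.4 and 184 CPM and the 4 open squares between 300.1 and 984.5 CPM.

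In each of the 3 chains every library with a title in N lay above every library with a title in G, while the order within the letters differed between chains. The heavy segments summed to 37.5 and 39.1 CPM in G1, 184 and 56.6 in G2, 20.4, 49.0 and 551 in wild type (single mutant), and 300.1, 984.5 and 362 in Control. Kappa segments summed to 9.80 and 14.9 CPM in G1, 133 and 34.5 in G2, 9.82, 34.9 and 444 in wild type (single mutant), and 246, 734 and 279 in Control. Lambda, the minor light chain of the mouse, summed to 0.760 and 0.655 CPM in G1, 2.11 and 0.872 in G2, 0.376, 0.657 and 6.06 in wild type (single mutant), and 7.63, 24.98 and 4.81 in Control. Between 1.35% and 7.20% of the light chain counts of a library were lambda; the highest share rests on 29 lambda counts (G1 replicate 1, Wilson 95% interval 5.06% to 10.1%, which covers counting error only).

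The mean total was 128 CPM with the risk alleles and 981 CPM in Control, 7.64-fold lower with the risk alleles (log2 ratio -2.93). Among the 6 libraries without a risk allele, it was 57.5 CPM in the 2 with titles in G and 986 CPM in the 4 with titles in N, 17.1-fold lower in the titles in G (log2 ratio -4.10). Within the titles in G, the libraries with a risk allele averaged 128 CPM and the 2 wild type (single mutant) libraries 57.5 CPM, and their ranges overlapped. These sums were given no test. Leaving out G2 replicate 1, the highest of its group, moved the log2 ratio of the risk alleles to Control to -3.92, and leaving out Control replicate 2 moved it to -2.22. For the title letters, leaving out wild type (single mutant) replicate 2 moved the log2 ratio to -5.01, and the lowest and highest values without 1 library were -5.01 and -3.54.

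Among the constant regions, Igha (chr12:113254830-113260236, minus strand, GRCm38), which encodes the IgA heavy chain of mucosal plasma cells, separated the title letters. It was at 7.97 and 14.3 CPM in G1, 127 and 27.1 in G2, 10.5, 36.8 and 181 in wild type (single mutant), and 226, 790.0 and 329.9 in Control. No library with a risk allele reached the lowest Control library. Igkc (chr6:70726435-70726966, plus strand), the only kappa constant region, followed it with 7.57 and 11.9 CPM in G1, 102 and 26.3 in G2, 6.499, 26.6 and 284 in wild type (single mutant), and 172, 534 and 227 in Control. Here too the 4 titles in N were above the 6 titles in G. Each gene was tested in 1 edgeR quasi-likelihood fit over 17823 genes, with Benjamini-Hochberg adjustment over all of them, and called at an adjusted p under 0.05. In the comparison of the risk alleles with Control, Igha fell by 3.93 ± 0.95 on the log2 scale (SE; adjusted p = 0.0112) and Igkc by 3.64 ± 1.10 (adjusted p = 0.0294). Without G1 replicate 1 Igha missed the threshold (adjusted p = 0.0517). Omitting any single library with a risk allele ended the Igkc call (edgeR quasi-likelihood adjusted p from 0.0518 to 0.100), as did omitting Control replicate 2 (0.0793).

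Ighm did not follow Igha over all 10 libraries. This constant region of IgM (chr12:113418558-113422730, minus strand) was at 26.5 and 21.2 CPM in G1, 30.8 and 16.3 in G2, 6.33, 5.44 and 83.1 in wild type (single mutant), and 16.1, 19.9 and 6.76 in Control. The libraries with a risk allele overlapped Control, lay above wild type (single mutant) replicates 1 and 2, and lay below replicate 3. Without a risk allele, Ighm was lower in all titles in G than in all titles in N, at the nearest 6.33 against 6.76 CPM. In that comparison it was not called, and its log2 fold change ran from -2.75 to -1.28 with 1 library left out. Its log2 fold change in the risk alleles against Control was 0.73 ± 0.89 (edgeR quasi-likelihood test, adjusted p = 0.548). Against the 2 wild type (single mutant) libraries with titles in G it was 2.01 ± 0.89 in the fit over all 10 libraries, which was not called (adjusted p = 0.105). Fitted on the 6 libraries with titles in G alone it was 2.004 ± 0.29 and called (edgeR quasi-likelihood test, adjusted p = 0.00312). With replicate 3 of wild type (single mutant) left out, the comparison of the risk alleles with the other two of that group gave 2.01 with an adjusted p of 0.00943. Within the titles in G, Ighm was thus higher in 4 of 4 libraries with a risk allele, and whether it is called depends on which libraries share the estimate of the spread. For Igha the same comparison within the titles in G gave a log2 fold change of 0.31 ± 0.78 (adjusted p = 0.784), and for Igkc 0.59 ± 0.70 (adjusted p = 0.538).

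**Figure D2:**
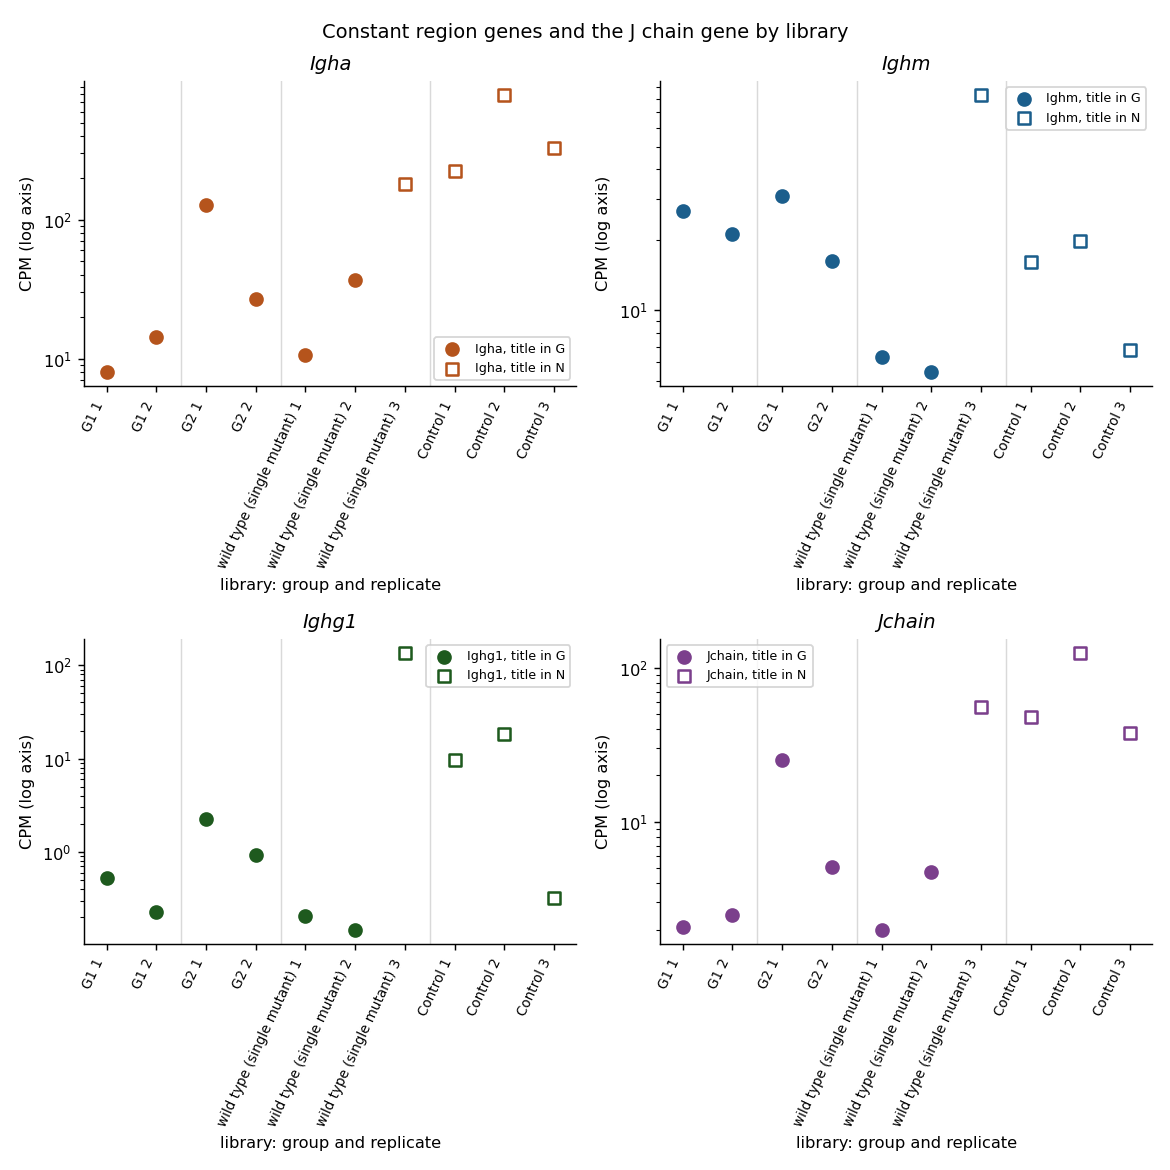
CPM (log axis) of Igha, Ighm, Ighg1 and the J chain gene Jchain in each library; filled circles are titles in G and open squares titles in N. Igha and Jchain are high in all 4 titles in N, whereas Ighm is at 16.3 to 30.8 CPM in the 4 libraries with a risk allele and highest, at 83.1 CPM, in wild type (single mutant) replicate 3.

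The IgG regions were led by 1 library. Ighg1, which encodes the IgG1 heavy chain, was at 0.524 and 0.227 CPM in G1, 2.27 and 0.921 in G2, 0.205, 0.146 and 137 in wild type (single mutant), and 9.75, 18.2 and 0.318 in Control. Replicate 3 of wild type (single mutant) was far above every other library, and Control replicate 3 lay within the range of the titles in G. The other 3 IgG regions, Ighg2b, Ighg2c and Ighg3, were likewise highest in wild type (single mutant) replicate 3, at 46.4, 39.7 and 3.64 CPM; elsewhere Ighg2b ran from 0.479 to 19.3 CPM, Ighg2c from 0.183 to 32.8 and Ighg3 from 0.0252 to 2.06. None of the 4 was called in the risk alleles against Control (log2 fold changes from -3.61 to -2.29, lowest edgeR quasi-likelihood adjusted p = 0.144). Ighg1 was called against wild type (single mutant), where it fell by 5.89 on the log2 scale (adjusted p = 0.0482). Without replicate 3 of wild type (single mutant) that fold change was 2.10 (adjusted p = 0.309), and the call was also lost without any 1 of the 4 libraries with a risk allele (edgeR quasi-likelihood adjusted p from 0.119 to 0.159).

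IgD and IgE were rare. Ighd was at 0.446 and 0.327 CPM in G1, 1.14 and 1.02 in G2, 0.479, 0.292 and 0.919 in wild type (single mutant), and 0.382, 1.41 and 0.119 in Control, with groups that overlapped (risk alleles against Control, log2 fold change 0.01 ± 0.77, edgeR quasi-likelihood adjusted p = 0.993). Ighe, the IgE region, had 20 counts in Control replicate 2 and 1 in wild type (single mutant) replicate 3, and 0 in the other 8 libraries; it was the only constant region too low to be tested.

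Of the 3 lambda constant regions, Iglc2 and Iglc3 are near-identical copies, and few bases tell their reads apart. The coding sequences of Iglc2 and Iglc3 (GENCODE M21 transcripts) agreed at 303 of 315 aligned positions, or 96.2%. Bases 1 to 240 of Iglc2 (chr16:19198614-19198853) and 1 to 239 of Iglc3 (chr16:19065443-19065681, both GRCm38, minus strand) are shown because the 2 genes moved differently. A read of 100 bases may cover only a few of the bases that differ, which capitals mark.
Iglc2: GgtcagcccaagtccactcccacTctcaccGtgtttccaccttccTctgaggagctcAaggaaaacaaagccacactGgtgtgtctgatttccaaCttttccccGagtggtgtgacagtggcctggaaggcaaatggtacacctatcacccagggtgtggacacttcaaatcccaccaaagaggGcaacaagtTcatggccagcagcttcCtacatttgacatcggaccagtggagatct
Iglc3: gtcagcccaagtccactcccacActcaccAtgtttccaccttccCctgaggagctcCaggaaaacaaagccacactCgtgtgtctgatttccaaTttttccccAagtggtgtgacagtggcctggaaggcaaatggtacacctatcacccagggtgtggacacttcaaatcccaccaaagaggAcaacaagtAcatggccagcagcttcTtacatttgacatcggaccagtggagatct
Iglc2 was at 0.262 and 0.201 CPM in G1, 0.682 and 0.149 in G2, 0.103, 0.365 and 2.04 in wild type (single mutant), and 4.58, 11.7 and 1.59 in Control. Iglc3 was at 0.288 and 0.252 CPM in G1, 0.454 and 0.274 in G2, 0.137, 0.183 and 0.545 in wild type (single mutant), and 0.416, 0.543 and 0.278 in Control, where the groups overlapped. In the risk alleles against Control, Iglc2 fell by 4.27 ± 0.99 on the log2 scale (edgeR quasi-likelihood test, adjusted p = 0.00935), and the value for Iglc3 was -0.40 ± 0.49 (adjusted p = 0.547). Iglc1 was identical to Iglc2 at 73.4% and to Iglc3 at 74.5% of aligned positions. It ran from 0.105 to 0.149 CPM with a risk allele and from 0.208 to 1.85 CPM in Control. It fell by 3.16 ± 1.03 on the log2 scale (edgeR quasi-likelihood adjusted p = 0.0398), a call that was lost without any 1 library other than Control replicate 1 (adjusted p from 0.0907 to 0.113).

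Per length, the isotypes made up different shares in different libraries. CPM of each heavy constant region were divided by its exon length and expressed as a share of their sum. Ighm took 78.2% and 63.7% in G1, 22.9% and 35.4% in G2, 41.7%, 16.7% and 20.6% in wild type (single mutant), and 8.13%, 3.03% and 2.78% in Control. Every library with a risk allele or of wild type (single mutant) had a larger Ighm share than every Control library. Igha took 16.6% and 30.4% in G1, 66.8% and 41.5% in G2, 49.1%, 79.9% and 31.7% in wild type (single mutant), and 80.6%, 85.2% and 95.9% in Control. The 4 IgG regions together took 3.88% and 4.94% in G1, 9.46% and 20.9% in G2, 6.11%, 2.55% and 47.4% in wild type (single mutant), and 11.1%, 11.4% and 1.22% in Control. Wild type (single mutant) replicate 3 was the only library in which IgG exceeded both IgM and IgA; Ighg1 alone took 24.7% there.

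**Figure D3:**
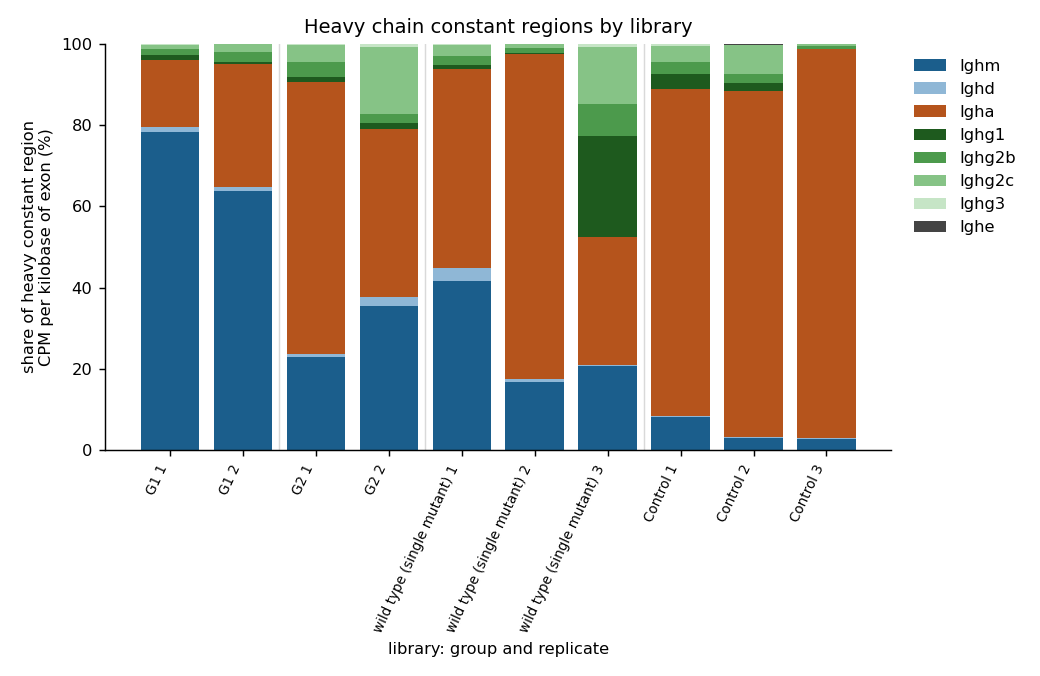
Share of each heavy constant region in the CPM per kilobase of exon of all 8 (stacked bars, %) in each library. Ighm leads in both G1 libraries (78.2% and 63.7%), Igha in all 3 Control libraries (80.6% to 95.9%), and the IgG regions together take 47.4% in wild type (single mutant) replicate 3.

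Heavy V counts were compared with heavy constant counts. They came to 2.08% and 2.94% of the constant counts in G1, 6.08% and 7.20% in G2, 10.4%, 12.2% and 12.1% in wild type (single mutant), and 12.2%, 11.3% and 6.51% in Control. Both G1 libraries were below all others, but not when Ighm and Ighd were left out of the constant counts. The V counts then came to 7.92% and 6.84% in G1, 7.46% and 10.7% in G2, 16.6%, 14.1% and 14.6% in wild type (single mutant), and 13.0%, 11.5% and 6.65% in Control.

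Among the V segments, Ighv5-17 led the heavy chain most often. It had the most heavy V counts in G1 replicate 1 (5 of 29), G2 replicate 1 (107 of 325), G2 replicate 2 (15 of 152) and Control replicate 3 (45 of 557), and it shared the lead with 2 other segments in wild type (single mutant) replicate 1 (5 of 56 each). In G2 replicate 1 this was 32.9% of the heavy V counts (Wilson 95% interval 28.04% to 38.2%), the largest share of any heavy or kappa V segment in any library. Over the 6 titles in G it made up 20.5% of the 752 heavy V counts and over the 4 titles in N 5.10% of 5999, and 107 of its 154 counts in the titles in G came from that 1 library. Coding bases 14 to 251 of Ighv5-17 (chr12:113859249-113859603) are set beside those of the annotated segment with the most similar coding sequence, Ighv5-15 (bases 14 to 251, chr12:113826748-113827108; both GRCm38, minus strand, chromosome 12, intron removed), because a read can be given to a segment only where it differs from its copies; capitals mark bases that differ.
Ighv5-17: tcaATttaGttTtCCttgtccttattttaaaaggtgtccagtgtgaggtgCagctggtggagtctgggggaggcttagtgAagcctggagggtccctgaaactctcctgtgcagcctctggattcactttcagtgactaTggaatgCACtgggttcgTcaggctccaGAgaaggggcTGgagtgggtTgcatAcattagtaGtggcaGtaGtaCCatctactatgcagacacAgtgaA
Ighv5-15: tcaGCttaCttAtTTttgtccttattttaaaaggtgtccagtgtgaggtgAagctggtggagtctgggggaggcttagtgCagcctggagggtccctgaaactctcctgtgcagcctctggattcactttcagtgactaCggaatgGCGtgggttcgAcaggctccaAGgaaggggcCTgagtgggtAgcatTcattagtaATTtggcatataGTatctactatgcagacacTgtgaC
Over their whole coding length the 2 agreed in 89.6% of aligned positions, and Ighv5-15 held 34 counts in all libraries together.

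Another heavy segment, Ighv1-72, led Control replicate 1 with 115 of 940 heavy V counts. It had 0 counts in each of the 6 titles in G, against 64 in wild type (single mutant) replicate 3 and 115, 134 and 29 in Control. That is 0 of 752 heavy V counts in the titles in G, which allows a share of up to 0.399%, against 342 of 5999 or 5.70% in the titles in N. The limit pools 6 libraries and covers counting error only. The segment reached the minimum of 10 counts through the titles in N alone, so this contrast describes how it was chosen and is no test. Its nearest copy, Ighv1-62-3, differs from it at 3 of 351 coding positions. Coding bases 1 to 240 of Ighv1-72 (chr12:115758095-115758416) and Ighv1-62-3 (chr12:115461110-115461431; GRCm38, minus strand, intron removed), which hold 2 of the 3, are shown because a read that covers none of these positions matches both; capitals mark the differing bases.
Ighv1-72: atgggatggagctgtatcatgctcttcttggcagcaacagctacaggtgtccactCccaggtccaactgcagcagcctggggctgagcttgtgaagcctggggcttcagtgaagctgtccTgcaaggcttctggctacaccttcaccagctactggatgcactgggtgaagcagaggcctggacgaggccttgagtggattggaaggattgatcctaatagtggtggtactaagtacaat
Ighv1-62-3: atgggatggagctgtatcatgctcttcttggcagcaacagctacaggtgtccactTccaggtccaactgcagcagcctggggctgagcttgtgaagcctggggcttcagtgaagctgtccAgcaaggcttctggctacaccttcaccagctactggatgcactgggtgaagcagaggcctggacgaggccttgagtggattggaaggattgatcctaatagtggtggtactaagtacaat
Ighv1-62-3 held 5 counts in all, of which 1 in G2 replicate 1, 2 in wild type (single mutant) replicate 3 and 2 in Control replicate 3.

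Other libraries were led by other heavy segments, and few counts stood behind the low libraries. Ighv1-64 led G1 replicate 2 with 4 of 44 counts, Ighv14-3 led wild type (single mutant) replicate 2 with 25 of 146, Ighv1-78 led wild type (single mutant) replicate 3 with 185 of 1749, and Ighv3-6 led Control replicate 2 with 301 of 2753. Of the 219 counts of Ighv1-78, 185 lay in wild type (single mutant) replicate 3, and of the 371 of Ighv3-6, 301 lay in Control replicate 2. At 29 heavy V counts, the number in the lowest library, the expected number of segments seen was 20.0 and 22.0 in G1, 14.8 and 17.7 in G2, 20.2, 17.3 and 19.3 in wild type (single mutant), and 17.5, 17.9 and 19.8 in Control. G2 replicate 1 was lowest, and the effective number of heavy segments (inverse Simpson index) was 7.77 there and 15.7 or more elsewhere.

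In the kappa chain the leading segment took 7.52% to 17.7% of a library's V counts. Igkv1-117 led G1 replicate 1 (11 of 84), Igkv1-135 led G1 replicate 2 (20 of 118) and wild type (single mutant) replicate 1 (17 of 96), Igkv1-110 led G2 replicate 1 (129 of 971) and Igkv2-137 led G2 replicate 2 (57 of 325). Igkv8-30 led wild type (single mutant) replicate 2 (17 of 226). The Igkv1-110 and Igkv1-117 coding sequences differ at 10 of 359 positions. Bases 107 to 346 of Igkv1-110 (chr6:68271015-68271254) and Igkv1-117 (chr6:68121575-68121814; GRCm38, plus strand) are shown because segments of this family led 4 of the 6 titles in G, and capitals mark the differing bases.
Igkv1-110: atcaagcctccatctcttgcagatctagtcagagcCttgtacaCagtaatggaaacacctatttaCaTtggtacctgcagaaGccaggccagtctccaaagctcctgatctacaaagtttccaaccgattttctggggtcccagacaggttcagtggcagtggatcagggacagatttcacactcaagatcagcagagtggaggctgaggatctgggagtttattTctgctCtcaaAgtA
Igkv1-117: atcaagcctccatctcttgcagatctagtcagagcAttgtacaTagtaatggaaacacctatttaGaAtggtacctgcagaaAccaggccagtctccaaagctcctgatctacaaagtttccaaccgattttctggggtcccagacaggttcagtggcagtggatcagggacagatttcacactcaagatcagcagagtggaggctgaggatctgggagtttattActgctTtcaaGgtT
In the titles in N, other families led: Igkv6-32 in wild type (single mutant) replicate 3 (671 of 4689), Igkv8-21 in Control replicate 1 (378 of 2132), Igkv6-23 in Control replicate 2 (543 of 5508) and Igkv3-10 in Control replicate 3 (128 of 1312). Wild type (single mutant) replicate 3 was shared between a pair of segments, since Igkv1-133, with 643 counts, came next to Igkv6-32; of all counts in the series, that library held 643 of 660 for Igkv1-133 and 671 of 793 for Igkv6-32. Similarly, G2 replicate 1 held 123 of 167 counts of Igkv8-19, its second kappa segment, named after its values were seen.

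**Figure D4:**
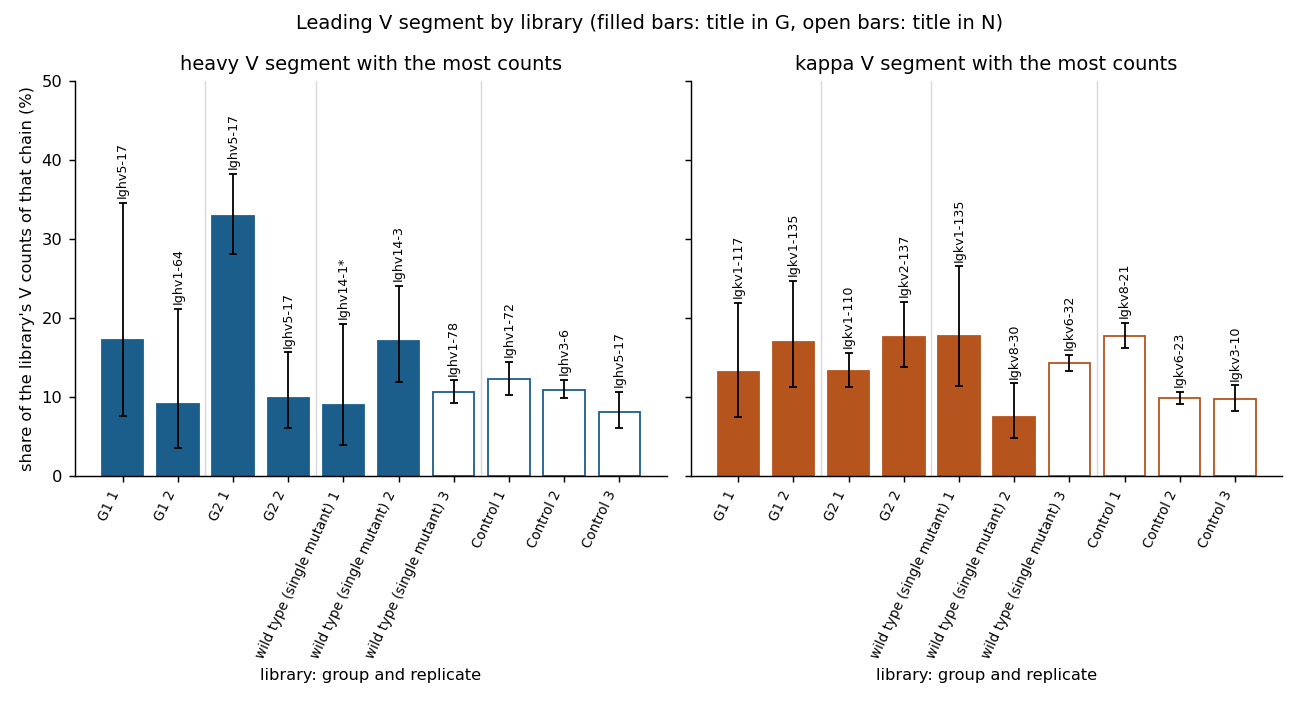
Share of the leading heavy (left) and kappa (right) V segment in the V counts of that chain in each library (%), with Wilson 95% intervals that cover counting error only; filled bars are titles in G and open bars titles in N, and an asterisk marks a lead shared by 3 segments. Ighv5-17 in G2 replicate 1 stands out at 32.9%, and the intervals of the libraries with few counts are wide.

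Lambda V counts were too few for a leading segment to be read in the titles in G, with 1 to 26 counts a library. In the titles in N, Iglv1 led wild type (single mutant) replicate 3 (62 of 70) and Control replicate 3 (19 of 37), Iglv2 led Control replicate 1 (43 of 70) and Iglv3 led Control replicate 2 (136 of 300). Iglv2 had 3, 1, 2 and 1 counts in the libraries with a risk allele, 1, 0 and 1 in wild type (single mutant), and 43, 39 and 16 in Control. All 3 wild type (single mutant) libraries were thus low for this segment, also the one with a title in N.

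Of the 175 segments, 112 passed the filter on low counts (101 V, 11 C and 0 J segments) and 63 did not; a segment could pass through the libraries where it was high, since 169 of 175 reached 10 counts from the titles in N alone and 85 from the titles in G alone. In the risk alleles against Control, 0 segments were called higher and 65 lower in edgeR's quasi-likelihood test, against 19.3% of all 17823 genes called higher and 18% called lower. At an unadjusted p under 0.05, 0 were higher and 78 lower, and DESeq2 called 0 higher and 71 lower, against 20.1% and 20% of its genes. No share of all genes is given for counts at an unadjusted p or for counts with a library left out. This holds here and in the comparisons below, so those counts are descriptive. The median log2 fold change was -4.36, or -4.27 with segments at 0 in a group set at their bound, beside 0.00 over all genes. By kind, 25 of 39 heavy V, 34 of 60 kappa V and both tested lambda V segments were called lower, but 1 of 7 heavy constant regions. The count was 30 without G1 replicate 1, 32 without G1 replicate 2, 42 without G2 replicate 2 and 30 without Control replicate 2.

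Of these 65, the 5 with the lowest p were V segments. Iglv2 fell by 4.54 ± 0.54 on the log2 scale (edgeR quasi-likelihood test, adjusted p = 0.000411). Ighv3-4 had 0, 1, 0 and 0 counts in the libraries with a risk allele and 14, 28 and 39 in Control (edgeR quasi-likelihood adjusted p = 0.000548). The ratio was 0.00677 with an exact 95% counting interval of 0.000169 to 0.0388. That interval pools the libraries of each group and leaves out the variation between them. Wild type (single mutant) had 1, 1 and 3 counts. Ighv14-3 had 0, 1, 2 and 7 counts with a risk allele, 5, 25 and 17 in wild type (single mutant), and 46, 27 and 18 in Control, and fell by 4.58 ± 0.72 (adjusted p = 0.00151). Ighv14-4 had 1, 0, 0 and 3 counts with a risk allele and 39, 59 and 41 in Control, and fell by 5.95 ± 0.97 (adjusted p = 0.00179). Igkv8-28 had 0, 0, 4 and 5 counts with a risk allele and 12, 38 and 10 in Control, and fell by 5.01 ± 0.90 (adjusted p = 0.00384). In each of them the highest library with a risk allele lay below the lowest Control library. Their choice by lowest p in this same comparison makes such a separation likely, so it is no added support.

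**Figure D5:**
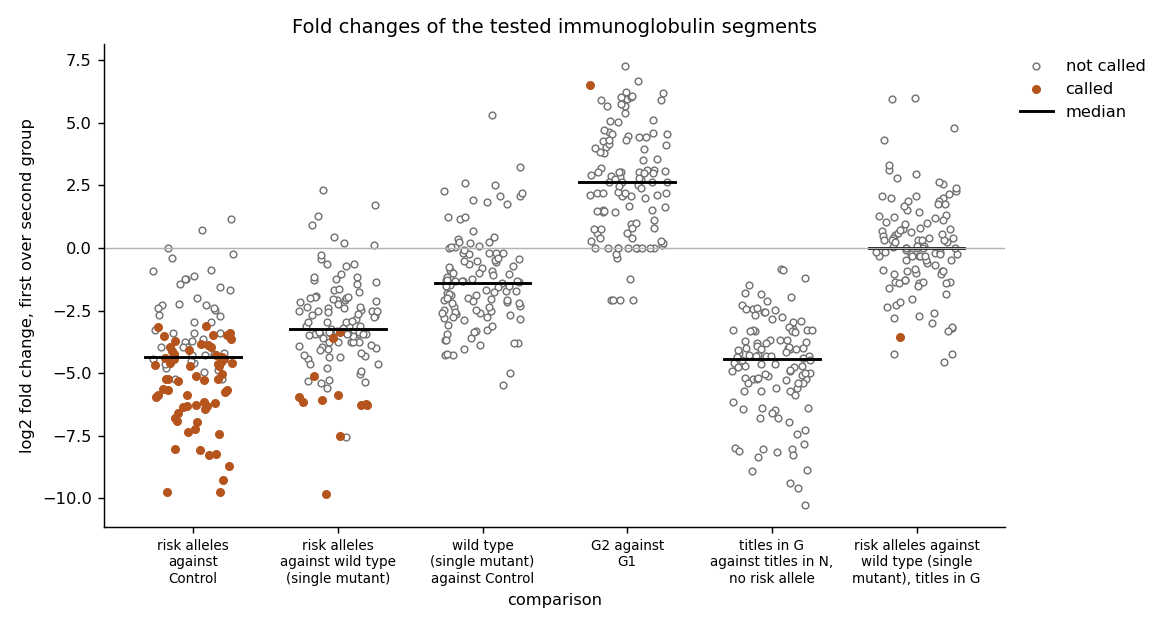
Log2 fold changes (first over second group) of the 112 tested segments in 6 comparisons; each point is a segment, filled (orange) where called at an adjusted p under 0.05, and the bar is the median. Fold changes of segments at 0 in a group depend on the fit and are no bounds. The median is -4.36 for the risk alleles against Control and -4.44 for titles in G against titles in N without a risk allele.

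The comparisons that share libraries with this one gave fewer calls. Against wild type (single mutant), with 2 titles in G and 1 in N, the risk alleles had 0 segments higher and 12 of 112 lower in edgeR. Over all genes 20.7% were called higher and 19.3% lower, so the share of segments called lower was below that background. DESeq2 called 0 higher and 33 lower, against 21.3% of its genes in each direction, so there the share called lower was above the background. The median log2 fold change was -3.23, with 0 higher and 34 lower at an unadjusted p under 0.05. The lowest p belonged to Ighv14-3, which fell by 3.59 ± 0.75 (edgeR quasi-likelihood adjusted p = 0.00540). Next came Igkv1-133 with 1 count against 644, Igkv3-5 with 2 against 61, Igkv3-2 with 9 against 260 and Ighv1-4 with 0 against 25. Of those counts in wild type (single mutant), replicate 3 held 643, 57, 250 and 21. Without that library the comparison called 2 segments higher and 1 lower. It called 2 lower without either G1 library, 5 without G2 replicate 1, 4 without G2 replicate 2 and 28 without wild type (single mutant) replicate 1.

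Within the titles in G, the risk alleles set against wild type (single mutant) replicates 1 and 2 had 0 segments higher and 1 lower, against 20.2% and 18.6% of all genes, with a median log2 fold change of 0.00 (0 higher and 1 lower at an unadjusted p under 0.05). The 1 was Ighv14-3 (-3.55 ± 0.87, edgeR quasi-likelihood adjusted p = 0.0108), which had 25 of its 30 wild type (single mutant) counts there in replicate 2; without replicate 2 it was not called (-1.92, adjusted p = 0.220). DESeq2 called 1 higher and 3 lower, against 20.7% and 20.4% of its genes. Without other libraries the number called ran up to 4 (without wild type (single mutant) replicate 1).

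Without any risk allele, titles in G set against titles in N gave fold changes as large as those above, with 2 libraries against 4. No segment was called by edgeR's quasi-likelihood test, which called 0 of the 17823 genes in this comparison (0% higher and 0% lower). At an unadjusted p under 0.05 in that test, 0 segments were higher and 86 of 112 lower. The median log2 fold change was -4.44, 112 of 112 were negative, and the lowest edgeR quasi-likelihood adjusted p was 0.411. Of the 175 segments, 169 reached 10 counts from the titles in N alone and 85 from the titles in G alone. Their choice thus favoured segments that are high in the titles in N, so the shared sign is descriptive and no test. DESeq2 called 0 segments higher and 37 lower, against 0.281% and 0.521% of the genes it tested. Without Control replicate 3, edgeR called 11 segments lower, a count given without the share of all genes called in that fit. For Igkc the edgeR log2 fold change was -4.20 ± 0.84 (adjusted p = 0.411) and for Igha -4.01 ± 0.95 (adjusted p = 0.416), and DESeq2's adjusted p was 0.000177 for Igkc and 0.00622 for Igha.

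Wild type (single mutant) against Control called 0 segments higher and 0 lower in edgeR's quasi-likelihood test, as it did over all genes (0% and 0%). At an unadjusted p under 0.05, 1 was higher and 25 lower, and DESeq2 called 0 higher and 1 lower, against 0.0112% and 0.0674% of its genes. The median log2 fold change was -1.39. The wild type (single mutant) libraries span both title letters, and their summed level ran from 30.5 to 1002 CPM.

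A fit with the first letter of the title as a term beside genotype rests on wild type (single mutant) replicate 3, the only library that separates title letter from genotype. In it, the risk alleles against Control had 2 segments called higher and 0 lower, against 8.69% and 7.25% of all genes. They were Ighm (4.55 ± 0.66, edgeR quasi-likelihood adjusted p = 0.00669) and Igkv19-93 (5.43 ± 1.02, adjusted p = 0.0136), for both of which that library held the most counts of the series. Against wild type (single mutant) the same fit called 2 segments higher and 1 lower, against 19.7% and 17.7% of all genes. Against Control, Igha stood at -1.001 (adjusted p = 0.640) and Igkc at 0.46 (adjusted p = 0.830).

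The mean level was higher in G2 than in G1, but with 2 libraries each and with G2 led by replicate 1. The sum over all segments averaged 206 CPM in G2 (319 and 91.9) and 51.3 in G1 (48.0 and 54.6). The median log2 fold change of G2 against G1 was 2.63 over the segments tested (2.11 with segments at 0 in a group set at their bound), beside 0.04 over all genes. In edgeR's quasi-likelihood test 1 segment was called higher and 0 lower, against 3.84% and 2.88% of all genes. It was Igkv1-122, with 11 and 14 counts in G2 and 0 and 0 in G1, at least 9.14-fold higher in G2 against 3 counts over both G1 libraries (adjusted p = 0.0472). The call was lost without any 1 of the 4 libraries. At an unadjusted p under 0.05, 12 were higher and 0 lower, and DESeq2 called 4 higher and 0 lower, against 7.29% and 7.62% of its genes.

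Jchain, the joining chain of polymeric IgA and IgM, followed Igha. It was at 2.07 and 2.47 CPM in G1, 25.2 and 5.11 in G2, 1.98, 4.71 and 55.3 in wild type (single mutant), and 48.0, 125 and 37.7 in Control, so that the titles in N again lay above the titles in G. In the risk alleles against Control it fell by 3.59 ± 1.07 on the log2 scale (edgeR quasi-likelihood adjusted p = 0.0276), a call that ended when Control replicate 2 (adjusted p = 0.0810), G2 replicate 2 (0.0774) or either G1 library (0.0909 and 0.0918) was omitted. Pigr, the epithelial receptor that carries polymeric IgA, was at 86.8 and 66.8 CPM in G1, 104 and 135 in G2, 205, 92.3 and 382 in wild type (single mutant), and 409, 1440.2 and 156 in Control. It fell by 2.80 ± 0.70 (edgeR quasi-likelihood adjusted p = 0.0131; 0.0544 without G1 replicate 2).

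Other plasma cell genes moved in both directions. Of 14 tested genes of a plasma cell list that includes Jchain, 5 rose and 3 fell in the risk alleles against Control, with a median log2 fold change of 0.06; over all genes 19.3% rose and 18% fell, and the share that fell is near that background. Besides Jchain, Derl3, a factor of protein degradation at the endoplasmic reticulum, fell by 0.95 ± 0.24 on the log2 scale (edgeR quasi-likelihood adjusted p = 0.0141), and Ell2, an elongation factor in the processing of secreted antibody mRNA, by 0.35 ± 0.12 (adjusted p = 0.0487). Pou2af1, a transcriptional coactivator of B lineage cells named after its values were seen, was at 0.105, 0.151, 0.519 and 0.398 CPM with a risk allele, 0.205, 0.219 and 1.87 in wild type (single mutant), and 0.555, 2.17 and 0.716 in Control. It was lower in all titles in G than in all titles in N and was not called against Control (-2.22 ± 0.83, edgeR quasi-likelihood adjusted p = 0.0640). Mzb1, a chaperone of antibody assembly, ran from 1.39 to 1.64 CPM with a risk allele and from 1.67 to 3.98 CPM in Control (-0.69 ± 0.36, edgeR quasi-likelihood adjusted p = 0.164), and wild type (single mutant) had 1.402, 1.17 and 2.45 CPM. All titles in N again lay above all titles in G, by a margin of 1.67 against 1.64 CPM at the nearest. Sdc1, the plasma cell surface proteoglycan that epithelia also express, rose by 1.79 ± 0.13 (42.7 to 54.9 CPM against 12.3 to 15.9 CPM in Control), and Irf4, a transcription factor of plasma and other immune cells, by 1.87 ± 0.42. Slamf7, Cd38 and Txndc5 of the same list were also called higher, by 1.92 ± 0.35, 0.70 ± 0.24 and 0.40 ± 0.08. Prdm1 and Xbp1, regulators of plasma cells with roles in other cells, stood at -0.03 ± 0.45 and 0.15 ± 0.12 and were not called.

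B cell genes were not lower with the risk alleles as a list. Its 22 genes summed to 33.1 and 42.2 CPM in G1, 54.2 and 51.4 in G2, 17.2, 13.8 and 26.8 in wild type (single mutant), and 22.6, 31.9 and 21.2 in Control. Of 20 tested, 4 rose and 0 fell against Control (19.3% of all genes rose), with a median log2 fold change of 0.75. The B cell surface gene Ms4a1 ran from 0.0786 to 0.260 CPM with a risk allele and from 0.119 to 0.688 CPM in Control, and was not called. Cd79a, a signalling chain of the B cell receptor, ran from 0.183 to 0.584 CPM with a risk allele and from 0.358 to 2.03 CPM in Control, and was not called either. Genes of recombination and switching were mostly too low to test (2 of 8 tested, 1 higher). T cell genes summed to 22.4 to 67.6 CPM with a risk allele and 12.9 to 20.7 in Control, and 8 of 12 rose, where 19.3% of all genes did.

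Receptors for antibody moved apart. Of 9 tested genes of receptors and transport, 4 rose and 3 fell against Control, where 19.3% of all genes rose and 18% fell. Fcgr1, a high-affinity IgG receptor of macrophages, was at 15.1, 14.6, 11.8 and 6.45 CPM with a risk allele and at 1.87, 1.74 and 0.676 in Control, and rose by 3.02 ± 0.40 on the log2 scale. Fcgr3 and the shared signalling chain Fcer1g rose by 2.79 ± 0.28 and 2.405 ± 0.34, and the inhibitory receptor Fcgr2b by 0.66 ± 0.16. Fcgrt, the neonatal receptor that recycles IgG, fell by 0.51 ± 0.11 and Fcamr, a receptor for IgA and IgM, by 3.60 ± 0.16. The highest adjusted p of these 6 in edgeR's quasi-likelihood test was 0.0109. Fcgrt was not called when libraries were scaled by their totals alone (-0.24, adjusted p = 0.0594), a scaling that moved the median of all genes by 0.27 on the log2 scale. Among 8 tested genes of survival and homing signals 1 rose and 3 fell, beside the same 19.3% and 18% of all genes. The chemokine receptor Cxcr4 rose by 1.70 ± 0.39 on the log2 scale and its ligand Cxcl12 fell by 1.72 ± 0.32. The chemokine Ccl28, which attracts IgA plasma cells to mucosa, fell by 2.83 ± 0.81 and its receptor Ccr10, at under 1 CPM and named after its values were seen, by 1.604 ± 0.40. The highest adjusted p of these 4 in edgeR's quasi-likelihood test was 0.0238. Tnfsf13b, which encodes the B cell survival factor BAFF, stood at 1.41 ± 0.50 (edgeR quasi-likelihood adjusted p = 0.0509) and the B cell chemokine Cxcl13 at -2.26 ± 0.89 (adjusted p = 0.0756).

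Genes of other tissues moved with these groups. Erythrocyte genes summed to 25.8 and 21.3 CPM in G1 and 143 and 268 in G2. They summed to 359, 555 and 599.7 CPM in wild type (single mutant), and 1065, 1024 and 623 in Control. All 6 fell against Control (18% of all genes fell), a direction shared in that comparison with the immunoglobulin segments. Within the titles in G, 5 of 6 fell with the risk alleles, where 18.6% of all genes did. The median log2 fold change there was -2.90 for the erythrocyte genes and 0.00 for the segments. Kidney genes summed to 7917 and 7392 CPM in G1 and to 22804 CPM or more in every other library. Against Control, 0 of 9 rose and 5 fell. Markers of lymph node stroma summed to 6.5 to 14.7 CPM with a risk allele and 2.43 to 7.46 CPM in Control, ranges that overlapped. Of 5 tested, 2 rose and 1 fell against Control. The one that fell, the lymphoid chemokine Ccl19, was at 0.0252 to 0.422 CPM with a risk allele and 0.398 to 1.19 CPM in Control (-2.95 ± 0.70, edgeR quasi-likelihood adjusted p = 0.0108; named after its values were seen). The part of blood, nearby lymphoid tissue or lost kidney cells in the immunoglobulin values was not tested.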

How the data were processed

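Total RNA of 10 mouse kidneys was made into oligo-dT primed cDNA and read as single ends of 100 bases, per the labels' protocols. The authors deposited 1 table of raw counts for each library. The submitters' processing notes name CASAVA 1.8.2, FastQC, Trim Galore, STAR 2.4.1d, HTSeq 0.6.1 and the build GRCm38; the strand setting is not given in the sources used here. Gene identifiers were matched to GENCODE M21, which found 46005 of 46517. Reads shared by near-identical V segments may be split or lost in counting, so the counts of single V segments are uncertain. A rearranged V segment also differs from the genome sequence at its joints and where it is mutated.

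Counts were fitted with edgeR 4.0.16 under R 4.3.3, using TMM factors, the filterByExpr filter (minimum count 10), 1 quasi-likelihood fit over all groups and 17823 genes, and Benjamini-Hochberg adjustment. Title letters without a risk allele and the comparison within the titles in G used a second fit with the groups split by title letter. DESeq2 1.42.0, library totals, RLE size factors, no filter, a fit of only the libraries compared, the title letter as a term and the omission of each library were tried as alternatives. The fits were tested on simulated data. CPM are counts over TMM-scaled library sizes; 3 counts correspond to 0.0862 to 0.109 CPM. Shares have Wilson 95% intervals. Tables were handled with pandas 2.3.3 and drawn with matplotlib 3.10.9.

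The segments, lists and tests were chosen with earlier results of these data known. Named by rule are all constant regions, the V segment with the most counts of each chain in each library, up to 5 called segments with the lowest p in each direction and comparison, and a fixed set of B cell, plasma cell and receptor genes, of which 1 is not reported here; list genes that were called and averaged 1 CPM or more could be named as examples. Levels of V segments with different lengths were compared only within a segment or as shares of counts; exon lengths of heavy V segments were 350 to 425 bases.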

Additional observations from a re-analysis of the deposited data

Results flagged for a closer look

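Of 34 values tested for a library far from the others of its set, 9 stood apart in Dixon's test, all at the high end. By chance the test picks about 1 in 20 where values are normally distributed. It was run on CPM without a log scale and that condition was not checked, so the chance rate here is not known. Among the 4 libraries with a risk allele, G2 replicate 1 was highest for the sum over all segments (319 CPM, next 91.9), the heavy chain (184 CPM, next 56.6), the lambda chain (2.11 CPM, next 0.872), Igha (127 CPM, next 27.1), Ighg2b (7.04 CPM, next 1.44) and Jchain (25.2 CPM, next 5.11). These values share 1 library and are not independent. Among the 4 libraries with titles in N, Control replicate 2 was highest for the lambda chain (24.98 CPM, next 7.63) and for Ighe (0.724 CPM, next 0.0340). In the same set, wild type (single mutant) replicate 3 was highest for Ighg1 (137 CPM, next 18.2).

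Igkv1-122 differed between G2 and G1 in edgeR's quasi-likelihood test (adjusted p = 0.0472), with 11 and 14 counts in G2 and 0 and 0 in G1. Without any 1 of these 4 libraries the adjusted p ran from 0.0906 to 0.207.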

How the results depend on the processing

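The number of segments called in the risk alleles against Control was 65, and 30 to 53 with 1 library left out; with the first letter of the title as a term it was 2, both higher. Against wild type (single mutant) it was 12, and 2 to 28 with 1 library left out, 33 by DESeq2, 39 without the filter, 1 of 48 tested with only the libraries compared, and 3 with the title term (2 higher). Wild type (single mutant) against Control gave 0, and 1 by DESeq2 and without the filter. G2 against G1 gave 1, and 0 with any library left out, 4 by DESeq2, 3 without the filter and 2 with only the libraries compared. Titles in G against titles in N without a risk allele gave 0, and 0 to 11 with 1 library left out, 37 by DESeq2 and 6 without the filter. The risk alleles against wild type (single mutant) within the titles in G gave 1, and 0 to 4 with 1 library left out, 2 with library totals, 4 by DESeq2, 2 without the filter and 3 (all higher) of 22 tested with only the libraries compared. The log2 ratio of the summed level ran from -3.92 to -2.22 (risk alleles against Control) and from -5.01 to -3.54 (title letters) with 1 library left out. The share of Ighv5-17 in G2 replicate 1 was 49.3% over segments with at least 100 counts. The cause of these changes was not tested. Shares of all genes called are given above for the main fits, for DESeq2 and for the title term. Counts of segments under the other settings have no such share beside them and are descriptive.

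With the title term, log2 fold changes against Control turned positive for Igkc (0.46), Iglc1 (1.10), Iglc3 (1.34), Jchain (0.46), Mzb1 (0.24), Ms4a1 (0.27) and Cd79a (0.30). Against wild type (single mutant) they did so for Ighg1 (2.10) and Ighm (2.01). With 1 library left out, Ighg1 ran from -6.47 to 2.10 and Ighm from -0.92 to 2.01 against wild type (single mutant). Within the titles in G, Igha ran from -0.47 to 1.48 and Igkc from -0.0944 to 1.94.

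No paired analysis was possible because the labels give no shared replicate numbers. The low libraries, with 29 to 325 heavy V counts, limit what can be said of single V segments there. Thinning leaves the expected shares as they are, so it was applied to numbers of segments alone.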
